A study of Mus musculus with 6 samples.

Results

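Glucocorticoid response genes are described here in whole mouse brain with and without Pofut1, which encodes an O-fucosyltransferase of EGF-like repeats that Notch receptors need. The 9 genes were Fkbp5, Sgk1, Tsc22d3, Per1, Zbtb16, Plin4, Pdk4, Hif3a and Sult1a1. Members were all probe sets annotated with 1 of these symbols alone, which gave 21 of the 45037 probe sets measured. All 9 genes were found, 5 of them with a single probe set. The study compared total RNA of brain from C57/Bl6 mice aged 2 months on 6 one-colour arrays, 2 per group. NestinCre control brains carried Nestin cre and wild type Pofut1. Flox control brains carried Pofut1flox/flox and no Cre, and knockout brains carried Nestin cre together with Pofut1flox/flox. Nestin-Cre acts in neural progenitors and their descendants, so vessels, microglia and blood cells of the knockout brain are expected to keep Pofut1. The labels name no steroid treatment, and the time of day and any handling before the brains were taken are unknown here.

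Corticosterone, the main glucocorticoid of the mouse, enters the brain from the blood and binds the glucocorticoid receptor, which moves to the nucleus and activates genes at DNA elements built of paired hexamers. The members are among the genes that rise in brain after stress or corticosteroid treatment, and several also answer to other signals. Fkbp5 encodes a co-chaperone that lowers the receptor's affinity for hormone. In whole brain, fewer cells of a type and less RNA per cell cannot be told apart.

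RefSeq start-site windows of GRCm38.p6, from 250 bases before to 50 after the start, were found for 8 of the 9 genes. Zbtb16 had none listed, and some genes had several, Sgk1 the most. The 16 windows were searched on both strands for the palindromic glucocorticoid response element (the hexamer AGAACA, any 3 bases, and the reverse complement of that hexamer), its core ACANNNTGT, the hexamer alone, the E-box CACGTG of clock factors and the cAMP response element TGACGTCA. The full element was found in 1 window, of Sgk1, and in 3 of 32851 windows of all genes (0.00913%). That window lies at chr10:21993640-21993939 on the + strand, with the element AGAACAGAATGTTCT from -189 to -175 relative to the start site. It also holds an E-box that overlaps a hexamer on the reverse strand. The hexamer was present in 5 of the 16 windows, of the 3 genes Sgk1, Tsc22d3 and Sult1a1, against 19.0% of all windows, and the full element contains the hexamer on each strand and the core. The E-box was present in 1 window each of Fkbp5, Sgk1 and Per1 (7.15% of all windows), the core in 2 windows of Sgk1 (6.85%) and the cAMP element in none (1.79%). A match is only a match of letters. The Sgk1 window with the full element is shown. Those of Fkbp5, Sult1a1, Plin4 and Hif3a are shown because the brightest probe sets of these 4 genes varied most between arrays. Capitals mark every motif found and the windows of Plin4 and Hif3a held none of the motifs. The windows lie at chr17:28486100-28486399 (Fkbp5), chr7:126676369-126676668 (Sult1a1), chr17:56109733-56110032 (Plin4) and chr7:17062378-17062677 (Hif3a), all on the - strand and written 5′ to 3′ along the gene.
Sgk1: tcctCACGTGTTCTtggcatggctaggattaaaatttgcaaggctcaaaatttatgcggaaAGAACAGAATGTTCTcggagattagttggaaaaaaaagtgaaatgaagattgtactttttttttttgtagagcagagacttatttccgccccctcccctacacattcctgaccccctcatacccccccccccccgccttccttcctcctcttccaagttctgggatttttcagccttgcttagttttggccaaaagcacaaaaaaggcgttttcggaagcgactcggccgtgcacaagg
Fkbp5: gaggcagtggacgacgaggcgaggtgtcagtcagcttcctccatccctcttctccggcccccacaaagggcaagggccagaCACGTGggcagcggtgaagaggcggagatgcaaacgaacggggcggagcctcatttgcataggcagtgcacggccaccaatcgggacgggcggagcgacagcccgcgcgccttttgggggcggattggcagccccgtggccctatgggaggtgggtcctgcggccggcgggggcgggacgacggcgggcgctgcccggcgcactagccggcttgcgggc
Sult1a1: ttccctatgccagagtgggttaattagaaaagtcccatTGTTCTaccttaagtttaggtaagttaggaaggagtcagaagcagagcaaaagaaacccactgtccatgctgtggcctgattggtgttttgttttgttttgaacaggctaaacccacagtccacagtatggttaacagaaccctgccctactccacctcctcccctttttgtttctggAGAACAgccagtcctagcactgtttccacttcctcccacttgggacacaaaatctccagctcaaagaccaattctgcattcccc
Plin4: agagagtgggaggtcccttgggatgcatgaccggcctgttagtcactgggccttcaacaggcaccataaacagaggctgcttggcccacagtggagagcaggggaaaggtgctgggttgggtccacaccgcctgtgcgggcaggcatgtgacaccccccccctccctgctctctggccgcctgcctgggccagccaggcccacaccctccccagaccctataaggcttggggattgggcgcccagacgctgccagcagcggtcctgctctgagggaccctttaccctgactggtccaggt
Hif3a: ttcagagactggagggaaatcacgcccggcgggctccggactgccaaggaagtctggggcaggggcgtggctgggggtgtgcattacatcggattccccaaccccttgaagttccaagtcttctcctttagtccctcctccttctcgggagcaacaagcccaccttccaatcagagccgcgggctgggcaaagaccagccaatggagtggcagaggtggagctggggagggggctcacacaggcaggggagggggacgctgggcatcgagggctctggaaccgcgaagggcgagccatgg

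Arrays had medians of 7.32 to 7.36 on the log2 scale and correlated with each other at 0.985 to 0.995 over all probe sets. The lowest pair was Flox control replicate 1 with knockout replicate 1. Pofut1 was lower on both knockout arrays, at 9.25 and 9.44, than on the 4 controls, at 9.77 to 9.95 (log2 difference -0.50, SE 0.08, limma adjusted p = 0.211). Xist and Eif2s3y levels marked 2 arrays as male, replicate 2 of NestinCre control and replicate 1 of knockout, and the other 4 as female. Summed intensity of 8 neuron markers was 34077 to 38353 on every array. That of 7 pituitary markers was 1092 and 2313 in Flox control, against 631 to 803 elsewhere. Dim is used below for probe sets whose mean is under 7.34 on the log2 scale, the median of all probe sets. Differences of such probe sets are usually compressed on these arrays, and 10 of the 21 member probe sets were dim. The brightest probe set of each gene was above that median for all 9 genes and stands for the gene unless another is named.

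No member differed between the genotype groups past the threshold. Knockout was above the average of both controls for 8 of 9 genes, with a median log2 difference of 0.16 against -0.02 over the brightest probe set of all 18193 genes, of which 40.7% lay above 0. For none of the 21 member probe sets was the limma adjusted p under 0.05, and 0.0155% of all probe sets passed that rule. At an unadjusted p under 0.05 there was 1 of 21, lower in knockout, against 11.1% of all probe sets in either direction and 5.08% in that direction. By the brightest probe set, Fkbp5, Sult1a1, Plin4 and Hif3a differed most between arrays of the same genotype. Gaps of Sgk1, Tsc22d3, Per1, Zbtb16 and Pdk4 stayed within those of 95% of the probe sets above the median brightness in every group. A second probe set of Zbtb16 above that median, 1439163_at, did not, with a Flox control gap larger than that of 99.6% of them. The values by array follow.

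**Figure D1:**
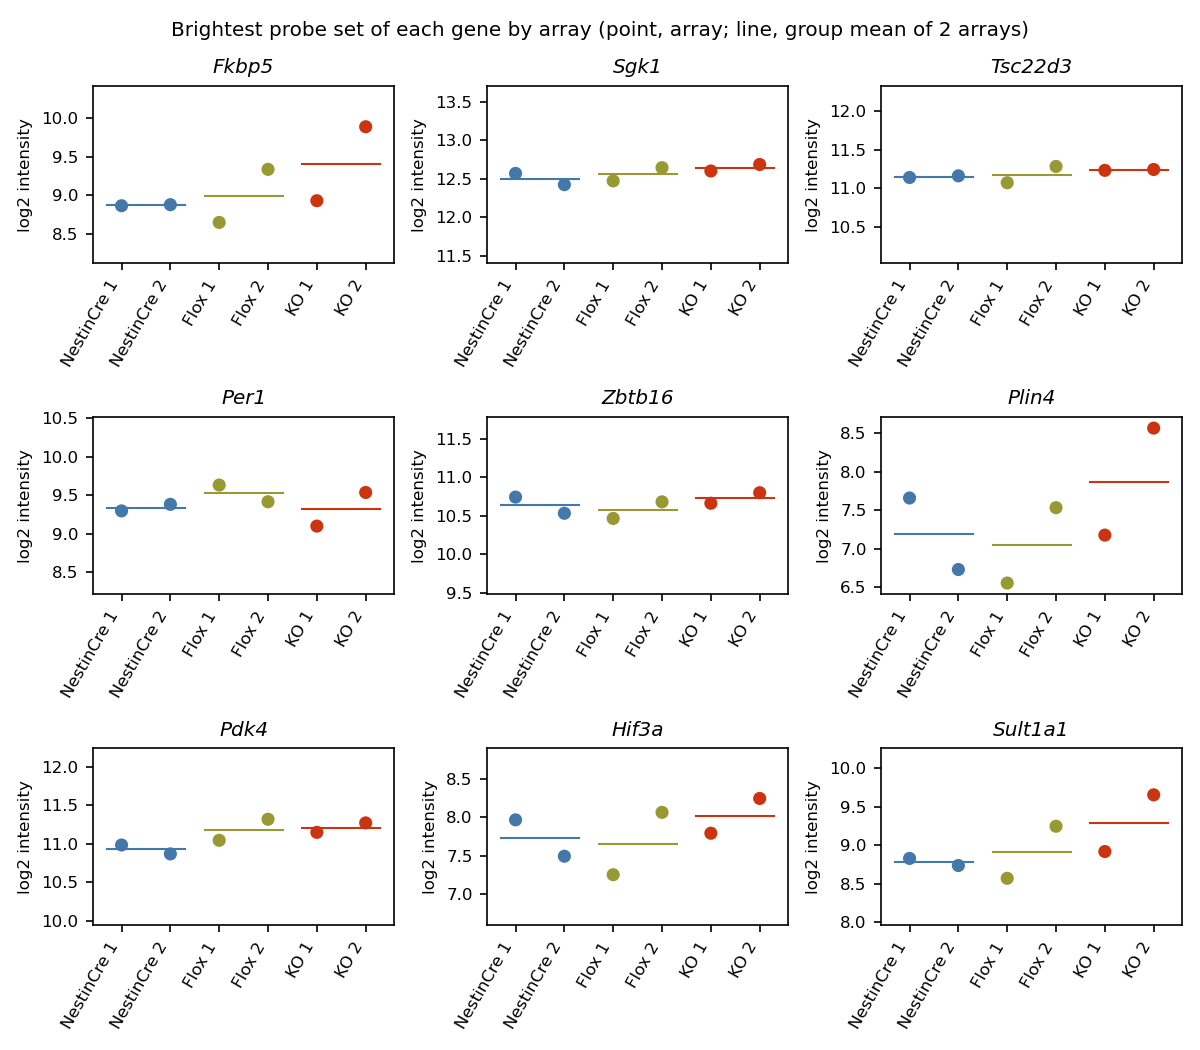
Log2 intensity of the brightest probe set of each gene (vertical axis, of equal span in every panel) on the 6 arrays (horizontal axis; KO, knockout). Points are arrays and lines are means of the 2 arrays of a group. Knockout replicate 2 is the highest array in 6 of the 9 panels and Flox control replicate 1 the lowest in 6.

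Fkbp5, the receptor's co-chaperone and a standard readout of corticosteroid exposure, was measured at 8.86 and 8.88 in NestinCre control, 8.65 and 9.33 in Flox control and 8.93 and 9.89 in knockout, on the log2 scale and in replicate order. Knockout replicate 2 and Flox control replicate 2 stood above the other 4 arrays, and knockout replicate 1 lay close to NestinCre control. The knockout arrays differed 1.95-fold and the Flox control arrays 1.61-fold. These gaps were larger than those of 99.6% and 98.4% of the probe sets above the median brightness. The group means were 8.87 ± 0.01 (SD, n = 2), 8.99 ± 0.49 (SD, n = 2) and 9.41 ± 0.68 (SD, n = 2). Knockout minus both controls was 0.48 (SE 0.33, limma adjusted p = 0.686). Without knockout replicate 2 it was -0.002, and without knockout replicate 1 it was 0.96. The 2 other probe sets of Fkbp5 were dim and ranged over 0.29 and 0.17 log2 units across the arrays. Of these, 1448231_at was also highest on the replicate 2 arrays of knockout (6.19) and Flox control (6.17), while 1447736_at was highest on NestinCre control replicate 1 (5.82).

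Sult1a1, a cytosolic sulfotransferase of phenols and steroids, followed nearly the same order. Its levels were 8.83 and 8.73 in NestinCre control, 8.57 and 9.24 in Flox control and 8.92 and 9.65 in knockout. The replicate 2 arrays of knockout and Flox control were again the highest, and Flox control replicate 1 the lowest. The knockout difference was 0.44 (SE 0.28, limma adjusted p = 0.655), and 0.07 without knockout replicate 2.

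Plin4, a perilipin that coats lipid droplets, had the widest spread of the 9 genes. It was measured at 7.66 and 6.73 in NestinCre control, 6.55 and 7.53 in Flox control and 7.18 and 8.56 in knockout, a range of 2.01 log2 units that exceeded that of 99.6% of the brighter probe sets. Each group held a high and a low array, and the groups overlapped. The gap between the arrays of a group was 1.90-fold in NestinCre control, 1.97-fold in Flox control and 2.62-fold in knockout, with replicate 1 the higher in the NestinCre pair and replicate 2 in the others. The knockout difference was 0.75 (SE 0.54, limma adjusted p = 0.699). It was 0.06 without knockout replicate 2 and 1.45 without knockout replicate 1.

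Hif3a, a relative of the hypoxia factors that limits their activity, was measured at 7.97 and 7.50 in NestinCre control, 7.26 and 8.07 in Flox control and 7.79 and 8.25 in knockout. The order of arrays was that of Fkbp5 at both ends, with NestinCre control replicate 1 as the third highest. Its knockout difference of 0.32 (SE 0.29, limma adjusted p = 0.773) was smaller than the gap of 0.81 between the Flox control arrays. Of its 5 dim probe sets, 1446708_at gave 7.10, 6.76, 6.57, 7.04, 6.97 and 7.32 over the arrays in the same order. The other 4 ranged over 0.04 to 0.26 log2 units.

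Sgk1, a serum- and glucocorticoid-regulated kinase, varied little. It was measured at 12.57 and 12.42 in NestinCre control, 12.47 and 12.64 in Flox control and 12.60 and 12.68 in knockout. Knockout replicate 2 and Flox control replicate 2 were the highest arrays here too, but the whole range was 0.26. The probe set is the only one of the gene. Of the several start-site windows of Sgk1, 1 held the full response element. Knockout minus both controls was 0.12 (SE 0.08, limma adjusted p = 0.684).

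Tsc22d3 encodes the glucocorticoid-induced leucine zipper protein, which restrains inflammatory transcription. Its brightest probe set read 11.14 and 11.16 in NestinCre control, 11.07 and 11.28 in Flox control and 11.23 and 11.24 in knockout. Flox control held both the lowest and the highest array, and the knockout arrays differed by 0.01. The second probe set, 1425281_a_at, was also lowest on Flox control replicate 1 (9.45), with the other 5 arrays at 9.73 to 9.88. The knockout difference was 0.07 (SE 0.07) for the brightest and 0.13 (SE 0.12) for the second. The 2 dim probe sets ranged over 0.14 and 0.20.

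The probe sets of Zbtb16, a zinc finger transcriptional repressor induced by corticosteroids, did not run together. The brightest, 1419874_x_at, was measured at 10.74 and 10.53 in NestinCre control, 10.46 and 10.68 in Flox control and 10.66 and 10.80 in knockout. The suffix x_at marks a probe set whose probes may match other transcripts. The next, 1439163_at, read 7.77 on Flox control replicate 1 and at least 8.66 on each of the other 5, so that its Flox control gap of 1.03 came from a single low array. The dim 1427638_at was lower on both knockout arrays, at 6.41 and 6.50, than on all 4 controls, at 6.58 to 6.79. It was the only 1 of the 21 with the knockout arrays apart from the controls, and in all 9.19% of probe sets had both knockout arrays below the controls and 8.77% above them. It was also the 1 with an unadjusted p under 0.05 (log2 difference -0.22, SE 0.07, limma adjusted p = 0.363). The 2 brighter probe sets differed by 0.13 (SE 0.10) and 0.40 (SE 0.30), in the opposite direction.

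Pdk4, the kinase that turns off pyruvate dehydrogenase during fasting, was the member whose groups differed most relative to their spread. It was measured at 10.99 and 10.87 in NestinCre control, 11.05 and 11.32 in Flox control and 11.15 and 11.27 in knockout. Both NestinCre control arrays lay below the other 4, which held for 5.23% of all probe sets. Knockout exceeded NestinCre control by 0.28 (SE 0.11, unadjusted p = 0.0556, limma adjusted p = 0.871), and NestinCre control was below Flox control by a log2 difference of -0.26 (SE 0.11, limma adjusted p = 0.527). Knockout against Flox control was 0.03, so the knockout value depended on which control it was set against.

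Per1, a repressor of the circadian clock that both glucocorticoid and neuronal activity induce, did not share this order. It was measured at 9.30 and 9.38 in NestinCre control, 9.63 and 9.42 in Flox control and 9.10 and 9.54 in knockout. Flox control replicate 1, the lowest array for 6 of the other members, was the highest for Per1. Knockout replicate 2 was the next, and knockout replicate 1 was the lowest. It was the only brightest probe set with knockout below the controls (-0.11, SE 0.14, limma adjusted p = 0.856), and without knockout replicate 1 the difference was 0.10.

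Put side by side, the brightest probe sets of the 9 genes were highest on knockout replicate 2 in 6 cases, Flox control replicate 2 in 2 (Tsc22d3 and Pdk4) and Flox control replicate 1 in 1. Over all probe sets these arrays were the highest for 15.0%, 17.1% and 23.6%. Flox control replicate 1 was the lowest array for 6 members, against 19.8% of all probe sets. The other members had their minimum on NestinCre control replicate 2 (Sgk1 and Pdk4; 14.0% of all probe sets) or knockout replicate 1 (Per1; 22.6%).

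**Figure D2:**
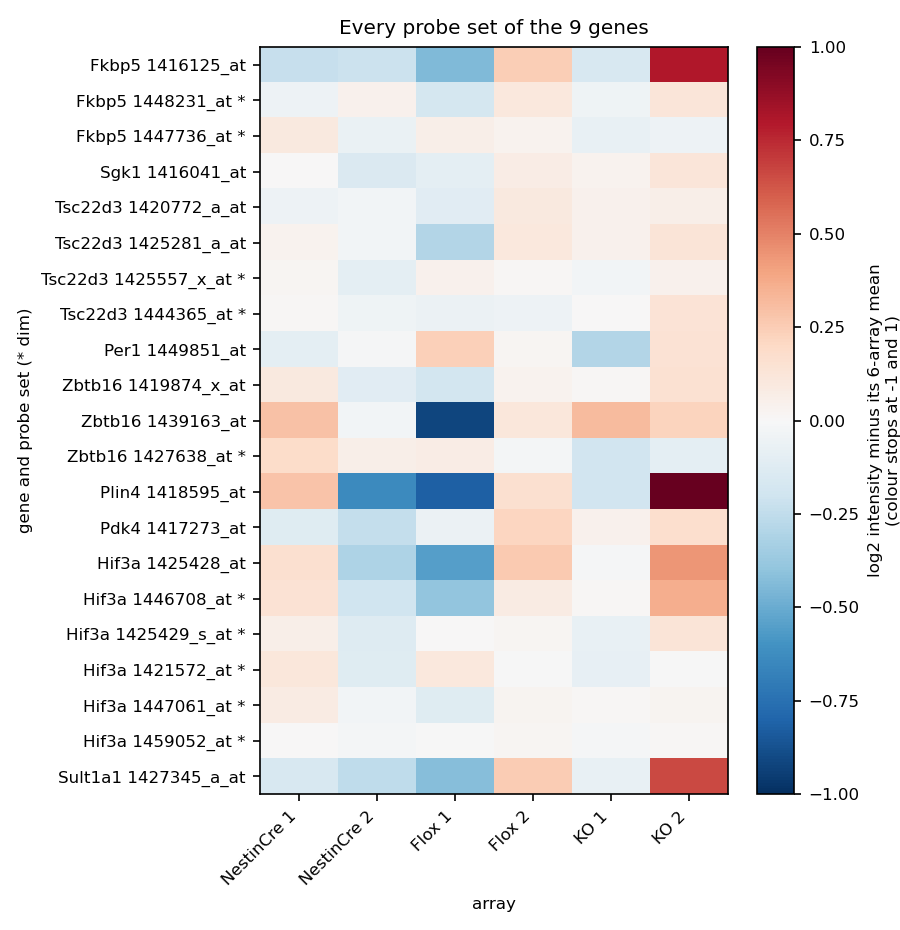
Colour gives the log2 intensity minus its mean over the 6 arrays for each of the 21 probe sets (rows, grouped by gene, brightest at the top of each gene; the star marks dim probe sets) on each array (columns). Red cells gather in the columns of Flox control replicate 2 and knockout replicate 2 for Fkbp5 and Sult1a1, and most dim probe sets are pale. Plin4 and Hif3a are red there and also on NestinCre control replicate 1, where Plin4 (7.66) exceeds its level on Flox control replicate 2 (7.53).

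Within groups, knockout replicate 2 was above knockout replicate 1 for all 9 genes, whereas 51.7% of all probe sets lay in that direction. The median gap was 0.44 for the brightest probe sets of the 9 genes and 0.10 over all probe sets, or 0.14 over those above the median brightness. Over all 21 member probe sets, 10 of them dim, the median knockout gap was 0.12, close to that of all probe sets. In Flox control, replicate 2 was above replicate 1 for 8 of 9 (49.2% of all probe sets), with a median absolute gap of 0.27 against 0.10, and of 0.22 over all 21 member probe sets. In NestinCre control replicate 1 was above for 6 of 9 (51.3%), and the median gap of 0.12 was near that of all probe sets, 0.09. Plin4 and Hif3a were outside the 95% band of the brighter probe sets in NestinCre control. In Flox control Fkbp5 and Sult1a1 were outside it as well, and in knockout Fkbp5, Plin4 and Sult1a1 were. For all 9 genes the widest gap within a group was larger than the knockout difference, which was so for 84.5% of all probe sets, so this count is close to what the array gives in general. Differences between groups made up 31.4% of the variation over the 6 arrays for the median member, against 45.8% for the median probe set. Pdk4, at 65.4%, was the only brightest probe set above that median, and Hif3a was the lowest at 21.1%.

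**Figure D3:**
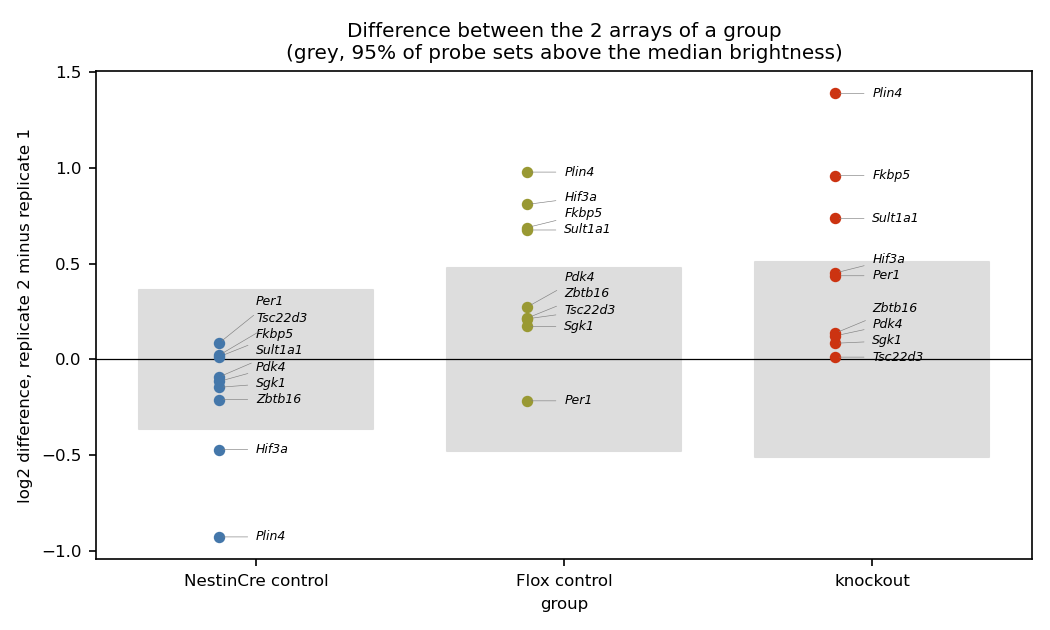
Log2 difference between the 2 arrays of each group (vertical axis, replicate 2 minus replicate 1) for the brightest probe set of the 9 genes, by group. The grey band holds 95% of the probe sets above the median brightness, and Plin4 lies outside it in every group, at -0.93, 0.98 and 1.39.

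The sex of the brains differs within the knockout and NestinCre pairs and does not within the Flox control pair. Both Flox control arrays were female, and their gaps reached 0.69 for Fkbp5, 0.68 for Sult1a1, 0.81 for Hif3a and 0.98 for Plin4. In the mixed pairs the female array was the higher for all 9 genes in knockout and for 6 of 9 in NestinCre control. The shares of all probe sets in these directions were 51.7% and 51.3%. In NestinCre control, male minus female was -0.93 for Plin4, -0.47 for Hif3a, -0.09 for Sult1a1 and 0.01 for Fkbp5. Whether sex had a part in the gaps was not tested. With sex as a covariate the knockout differences were 0.60 (SE 0.31) for Fkbp5, 0.54 (SE 0.26) for Sult1a1, 0.44 (SE 0.26) for Hif3a and 1.04 (SE 0.33) for Plin4. The smallest limma adjusted p of these was 0.451, for Plin4.

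**Figure D4:**
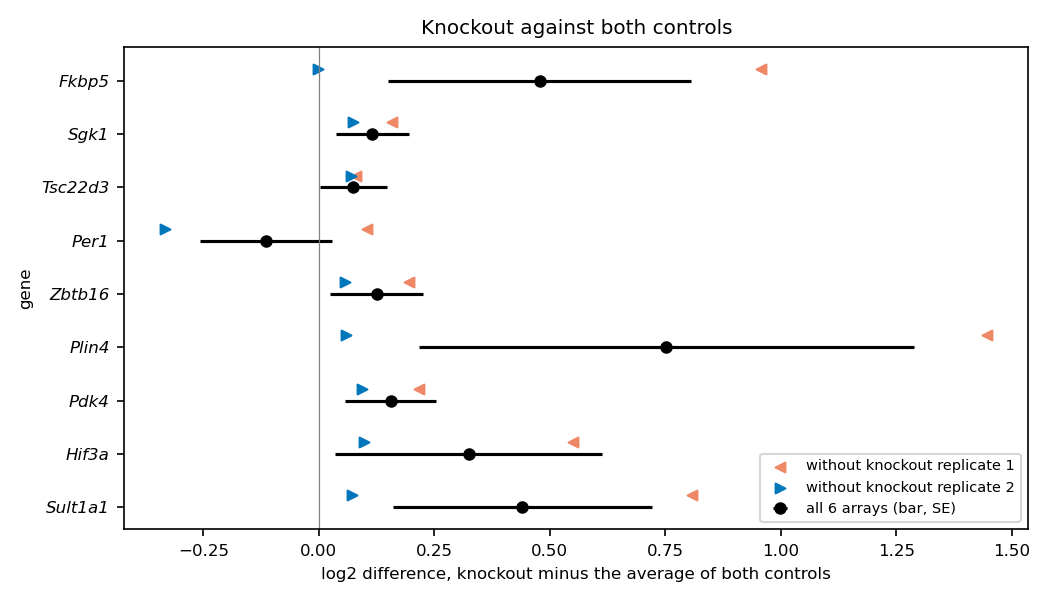
Log2 difference of knockout from the average of both controls (horizontal axis) for the brightest probe set of each gene (vertical axis). Black points with bars give the value and its SE over all 6 arrays, and triangles the value when either knockout array is left out. Without knockout replicate 2 the 4 widest genes lie at -0.002 (Fkbp5), 0.06 (Plin4), 0.10 (Hif3a) and 0.07 (Sult1a1).

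Against each control alone the picture was the same. None of the 21 probe sets passed against NestinCre control, where 0% of all probe sets did, or against Flox control, where 0.00444% did, or between the controls, where again 0% did. At an unadjusted p under 0.05 the member counts were 1, 0 and 0, against 5.81%, 15.9% and 10.4% of all probe sets. With NestinCre control as the reference the median member difference was 0.28, with Flox control it was 0.16, and NestinCre control minus Flox control gave -0.06. These comparisons share arrays. Plin4 stood at 0.68 and 0.83 against the 2 controls (SE 0.62 each), and Fkbp5 at 0.54 and 0.42 (SE 0.38 each).

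A list of 30 other genes induced by glucocorticoids, drawn up with earlier results of these data known, was like the members highest on knockout replicate 2 and Flox control replicate 2. Unlike them it was most often lowest on knockout replicate 1, for 11 of the 30, and on Flox control replicate 1 for 3. That is also the order over all 18193 genes, of which 5074 and 2315 were lowest on these arrays. Of these 30, 15 were above and 15 below 0 in knockout against both controls, with a median of 0.02, and none passed. Yet 28 of 30 were higher on knockout replicate 2 than on knockout replicate 1 (51.7% of all probe sets), with a median gap of 0.32. In 21 of 30 Flox control replicate 2 was above replicate 1 (49.2%). The knockout direction was also that of 8 of 9 endothelial markers (median gap 0.17) and 7 of 8 neuron markers (0.07). It was that of 5 of 14 immediate early genes. Knockout replicate 2 was the highest of the arrays for 16 of the 30, against 15.4% of all 18193 genes. The smallest p in the knockout comparison belonged to the transglutaminase Tgm2 (0.33, SE 0.08), Cables1 (-0.39, SE 0.12), Sesn1 (-0.22, SE 0.08) and xanthine dehydrogenase (Xdh, 0.49, SE 0.19), with limma adjusted p from 0.304 to 0.460. The next genes are named after their values were seen. Arrdc2, an arrestin-domain gene, read 8.76 and 8.30 in NestinCre control, 8.50 and 9.16 in Flox control and 8.22 and 9.28 in knockout. Its knockout gap of 1.06 was the widest of the list. The kinase gene Map3k6 followed at 0.83, the lysolipid transporter Mfsd2a at 0.79, and the transcription factor Klf15 was at 0.56. Dusp1 and Sdc4 were the 2 genes that were not higher on knockout replicate 2, with gaps of -0.06 and -0.03.

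The machinery of the response was measured for 15 of 18 listed genes, and none passed. Their median knockout difference was -0.03, and no array stood apart (array medians between -0.06 and 0.05 of the mean over arrays). Nr3c1, the glucocorticoid receptor, read 10.63 and 10.83 in NestinCre control, 10.88 and 10.74 in Flox control and 10.71 and 10.52 in knockout. It was lowest on knockout replicate 2, the array where the members were highest. The mineralocorticoid receptor Nr3c2 had a knockout difference of -0.16 (SE 0.05, limma adjusted p = 0.375). Hsd11b1, which regenerates active corticosterone, had the smallest p of the list (-0.23, SE 0.07, limma adjusted p = 0.371), and the coactivator Ncoa3 stood at 0.28 (SE 0.12). Of the 10 stress hormone genes and their receptors all 10 were below 0, as were 10797 of all 18193 genes. Their median was -0.07, and none passed. The corticotropin-releasing hormone binding protein Crhbp was at -0.26 (SE 0.11), Ucn3 at -0.13 (SE 0.07) and the ACTH precursor Pomc at -0.23 (SE 0.18). Pomc is also among the pituitary markers, whose sum was highest in Flox control. It read 8.05 and 7.77 in NestinCre control, 8.46 and 8.94 in Flox control and 8.23 and 7.92 in knockout.

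Per1 also belongs to the clock genes and is induced with the immediate early genes of neuronal activity, so both lists were read beside it. Of 14 measured immediate early genes, 12 were highest on Flox control replicate 1, where Per1 was highest, against 30.6% of all 18193 genes. All 14 were higher there than on Flox control replicate 2, while 49.2% of all probe sets were higher on replicate 2. The lean was not particular to this list. Flox control replicate 1 was also highest for 6 of 8 neuron markers and 6 of 10 pericyte and smooth muscle markers, but for 0 of 8 astrocyte markers. Their median knockout difference was -0.29, with 12 of 14 below 0 and none past the threshold; Fosb had the smallest p (-0.33, SE 0.09, limma adjusted p = 0.316). The transcription factor gene Fos, named after its values were seen, read 10.80 and 11.17 in NestinCre control, 11.76 and 11.06 in Flox control and 10.94 and 10.48 in knockout. On knockout replicate 2, the second highest array for Per1, Fos was lowest. Of 17 clock and output genes 10 were above 0 in knockout, with a median of 0.01, and none passed. Bhlhe40, a repressor of clock genes, was at -0.25 (SE 0.08, limma adjusted p = 0.379) and Cry1 at -0.16 (SE 0.06). Per2 and Per3, the paralogs of Per1, were chosen for description after their values were seen. Per2 read 8.90 on Flox control replicate 1 and 9.45 to 9.76 on the other arrays, and Per3 read 10.64 there and 11.06 to 11.40 elsewhere. Both were thus lowest on the array where Per1 was highest. Whether neuronal activity or time of day had a part in the Per1 values was not tested.

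**Figure D5:**
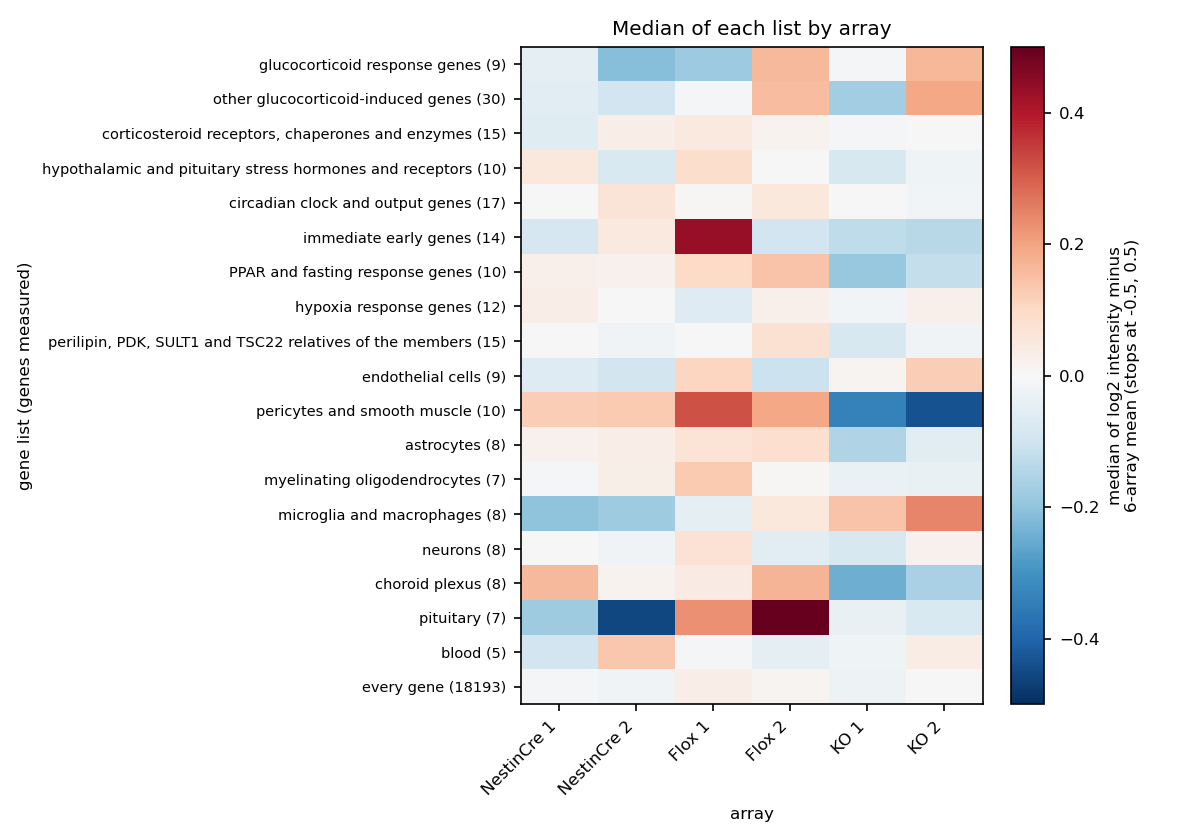
Median over the genes of each list (rows, with the number measured) of log2 intensity minus its mean over the arrays, for each array (columns). The members and the other glucocorticoid-induced genes share their red cells in Flox control replicate 2 and knockout replicate 2, while immediate early genes are red in Flox control replicate 1. Other lists share some of these columns. Microglial markers are red on both knockout arrays (0.14 and 0.24), and pericyte (0.32) and pituitary markers (0.23) on Flox control replicate 1. On Flox control replicate 2 pituitary markers are reddest (0.71), pericyte (0.19) and choroid plexus markers (0.17) are red too, and endothelial markers are blue (-0.11).

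Other lists were followed because members answer to more than glucocorticoid. Of 10 measured fasting and PPAR genes, which include the partners of Pdk4 in fat oxidation, 8 were below 0 in knockout and none passed. Their median was -0.19, with Acot1 at -0.53 (SE 0.10), Cpt1a at -0.57 (SE 0.11), Acadl at -0.35 (SE 0.07) and Ucp3 at -0.21 (SE 0.05). Their array medians were lowest on the knockout arrays, at -0.19 and -0.12, and so did not run with Pdk4. Of 12 hypoxia genes 5 were above 0 (median -0.02), and adrenomedullin (Adm) had the smallest p (0.57, SE 0.11, limma adjusted p = 0.236). Of 15 relatives of the members, such as other perilipins and PDK and SGK kinases, 5 were above 0 and none passed (median -0.10). Pdk3 was at -0.22 (SE 0.08), Tsc22d4 at -0.20 (SE 0.08) and Sgk3 at 0.32 (SE 0.13).

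Cell type markers were read beside the members on each array. Endothelial markers had summed intensities of 6481 and 6365 in NestinCre control, 7249 and 6308 in Flox control and 6538 and 7095 in knockout. The highest was Flox control replicate 1, where most members were lowest, and the next was knockout replicate 2. Of 9 endothelial genes 8 were higher on knockout replicate 2 than on replicate 1. Astrocyte markers summed to 28670 to 29455 over the 6 arrays, but single markers lay apart in the knockout comparison, with 6 of 8 below 0 and none past the threshold. At an unadjusted p under 0.05, 2 were higher, Gfap (0.86, SE 0.07, limma adjusted p = 0.0890) and Aqp4 (0.25, SE 0.06), and 3 were lower, Slc1a2 (-0.23, SE 0.05), Slc1a3 (-0.19, SE 0.06) and Sox9 (-0.36, SE 0.12). Pericyte and smooth muscle markers summed to 2885 and 2696 in knockout and 5334 to 5939 in the controls, with Rgs5 past the threshold (-2.16, SE 0.08, limma adjusted p = 0.0263). Choroid plexus markers summed to 13302 and 13598 in knockout and 14011 to 15112 in the controls. Microglial markers were highest in knockout, at 8239 and 8352, against 6990 to 7875. Knockout replicate 2, with the highest member levels, held pituitary markers at 720, and Flox control replicate 2 at 2313. The part of these cells in the member values was not tested.

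Array patterns most like those of the members were looked for among all probe sets with 1 symbol, by the root mean square difference of log2 values centred on their own mean over the 6 arrays. The search covered the 4 genes whose range was in the top 5.0% of all probe sets, Fkbp5, Plin4, Hif3a and Sult1a1. Sult1a1 was the nearest gene to Fkbp5 (0.07 log2 units), and Fkbp5 the nearest to Sult1a1. The next for both were Pof1b (0.10 from Fkbp5) and Tekt4 (0.14), each dim, with Pof1b at 6.57 on knockout replicate 2 and 5.56 to 5.97 on the other arrays. Nearest to Hif3a were the predicted gene Gm19439 (0.07), adenosine deaminase (Ada, 0.10) and Ms4a6c (0.12). Plin4 had no close match, with D4Ertd617e, Gm19439 and Fkbp5 at 0.35 each.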

How the data were processed

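Total RNA of mouse brain was measured on 6 one-colour expression arrays, with 25 ng of RNA per array per the labels. The authors deposited linear intensity values for 45101 probe sets, and RMA and GCOS are named in the submitters' processing notes, without versions. Log2 of each intensity was used with no further normalization. The 64 control probe sets were left out. Probe sets took their gene from the platform annotation, and 34945 of 45037 had 1 symbol. The members and gene lists were chosen with earlier results of these data known. Named genes were all members, up to 4 genes with the smallest p of each list, and the 3 genes of nearest array pattern to each wide-ranging member; exceptions are marked in the text.

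Groups were compared with limma 3.58.1 in R 4.3.3, with 1 mean per group, a shared spread with 3 residual degrees of freedom, and Benjamini-Hochberg adjustment over 45037 probe sets at 0.05. The fit was tested on simulated data. The labels do not state whether the 2 arrays of a group came from separate animals. By Xist and Eif2s3y, the NestinCre control pair and the knockout pair each held 1 male and 1 female brain. Those pairs thus came from separate animals, while for the Flox control pair, both female, this is unknown. The p-values rest on a spread shared by all groups. It includes differences between animals in NestinCre control and knockout, and in Flox control it may come from the measurement alone. Having only 2 arrays per group leaves the estimates imprecise. Alternatives were median centring, repeated quantile normalization, log2 of the value plus 16, an intensity trend, bright probe sets alone, the mean over probe sets of a gene, compared groups alone, sex as a covariate, a replicate block and leaving out each array.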

Additional observations from a re-analysis of the deposited data

How the results depend on the processing

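No member gene was called in any comparison under any alternative run, and the smallest limma adjusted p of a member was 0.207. Of 531 recomputed member differences 28 changed sign, 24 of them when an array was left out. Leaving out each array in turn, knockout minus both controls ran from -0.00203 to 0.96 for Fkbp5 and -0.33 to 0.10 for Per1. Against NestinCre control it ran from -0.24 to 0.20 for Per1, -0.0119 to 0.20 for Zbtb16 and -0.0176 to 1.37 for Plin4. Against Flox control it ran from -0.0626 to 0.90 for Fkbp5, -0.000576 to 0.17 for Sgk1, -0.0452 to 0.17 for Tsc22d3, -0.42 to 0.0121 for Per1, -0.11 to 0.16 for Pdk4 and -0.0452 to 0.76 for Hif3a. NestinCre control minus Flox control ran from -0.47 to 0.22 for Fkbp5, -0.15 to 0.0245 for Sgk1, -0.13 to 0.0789 for Tsc22d3, -0.0434 to 0.17 for Zbtb16, -0.34 to 0.64 for Plin4, -0.33 to 0.48 for Hif3a and -0.46 to 0.21 for Sult1a1. With the mean over all probe sets of a gene, Zbtb16 was at -0.0130 against NestinCre control and Tsc22d3 at 0.0111 between the controls. With sex as a covariate, the difference between the controls was 0.12 for Fkbp5 and 0.0812 for Sult1a1. The cause was not tested.

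Over all probe sets, 7 passed in knockout against both controls; 22 did with median-centred arrays, 135 with an intensity trend, 34 of the brighter probe sets alone, 49 genes by the mean of their probe sets, 0 with sex as a covariate, and 0 or 1 without any 1 array. With a replicate block 0 probe sets passed (4423 at an unadjusted p under 0.05) and the count of member genes called was 0. Whether the replicate numbers pair arrays across groups is unknown here. Differences between replicates correlated over probe sets at 0.19 for the control groups, -0.31 for NestinCre control with knockout and -0.24 for Flox control with knockout. These values cannot settle it, because sex also differed within the NestinCre control and knockout pairs. With 2 arrays a group, the spread of a single gene within a group could not be tested, and differences of dim probe sets are usually compressed on such arrays.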
